A study of Mus musculus with 11 samples.

Results

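The LIF and STAT3 pathway was followed through 7 genes, taken by name from 54809 genes with a symbol in the counts files: the receptor genes Lifr and Il6st, the kinase gene Jak1, the transcription factor gene Stat3, and the STAT3 target genes Socs3, Pim1 and Bcl3. The genes were chosen for their known places in the pathway, with earlier results of these data known. All samples were wild-type mouse embryonic stem cells (ESCs) of the E14 line, grown on gelatin in medium with recombinant LIF at 100 U/ml. RNA was taken 36 h after transfection with a control scramble siRNA (3 libraries), CMTR1 siRNA 1 (4 libraries) or CMTR1 siRNA 2 (4 libraries). CMTR1 methylates the first transcribed nucleotide of capped RNA, and the comparisons ask how each transcript responded to siRNAs directed at it. LIF was present in every group, so no group shows the pathway without its ligand. Total RNA was depleted of rRNA and sequenced in directional libraries.

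Counted reads came to 7876141, 8107684 and 7429926 under control siRNA, against 6738478, 8023829, 7571621 and 7482024 for siRNA 1 and 7039741, 8382318, 7417683 and 8098499 for siRNA 2. Compared with control, library size gave an exact p of 0.429 for siRNA 1 (two-sided exact permutation test, smallest possible p 0.0571), and a larger exact p for siRNA 2. Levels are CPM, the counts of a gene scaled by the total of its library. Differences are log2 fold changes from edgeR's quasi-likelihood test on all 3 groups. A gene was called where its p-value, adjusted by Benjamini-Hochberg over the 16073 genes with more than 1 CPM in at least 4 libraries, was at most 0.05. All 7 genes passed that filter. The methods name 3 biological replicates, where the labels give 4 libraries to each CMTR1 siRNA, and nothing says which libraries came from separate cultures, so the p-values measure only the spread between these samples, which may be technical. Both siRNA groups were compared with the same 3 control libraries. RNA was measured in bulk, and fewer cells of a type and less RNA per cell cannot be told apart.

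LIF is a cytokine of the interleukin-6 family that keeps mouse ESCs self-renewing in culture. It binds the LIF receptor, which pairs with gp130, the signalling subunit shared by members of that cytokine family and encoded by Il6st. JAK kinases bound to the receptor tails then phosphorylate STAT3, which dimerises, enters the nucleus and activates its target genes. Among the targets is Socs3, whose product binds gp130 and the JAKs and switches the signal off. The pathway acts through phosphorylation, which RNA levels do not measure.

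Cmtr1, the gene targeted by the siRNAs (ENSMUSG00000024019, chr17:29660595-29705979, plus strand, GRCm38), was at 21.3, 21.7 and 17.9 CPM under control siRNA, against 21.1, 21.3, 16.2 and 18.0 for siRNA 1 and 15.6, 16.8, 16.4 and 19.5 for siRNA 2. The groups overlapped, with the third control library below 3 siRNA 1 libraries and below the highest siRNA 2 library. Its log2 fold change was −0.088 (95% interval −0.30 to 0.13, SE 0.11, adjusted p = 0.743) with siRNA 1 and −0.25 (95% interval −0.46 to −0.031, SE 0.11, adjusted p = 0.144) with siRNA 2, and neither was called. These values came from 110 to 176 reads per library, and 36.3% of the exon length of Cmtr1 lies in exons of Gm28043 or Gm28052 on the same strand, where counting could divide or discard reads. Gm28043 was at 4.82 to 6.73 CPM in control, 3.17 to 6.55 with siRNA 1 and 4.69 to 6.74 with siRNA 2. Gm28052 had 0 reads in every library. Discarded reads would not appear in these levels. On the other strand 47.2% of it overlaps Ccdc167, and the strand setting of the counting is not given in the sources used here. The counts therefore give no call for a lower level of the targeted RNA, and the groups are named below by the siRNA the labels give.

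Across the 7 genes, Bcl3 was the one edgeR called against control, lower with siRNA 2 at 76.6% of control. The receptor, kinase and STAT3 genes themselves, and the targets Socs3 and Pim1, stayed within −0.13 and 0.11 of control on the log2 scale. They were not called by edgeR, though all siRNA 2 libraries of Lifr and Stat3 were below every control library. With siRNA 1, edgeR called 0 of the 7 genes, against 4.67% of all genes tested (751 of 16073). At an unadjusted p under 0.05 there was 1, Bcl3, and DESeq2, edgeR's exactTest and edgeR with TMM factors each called 0. With siRNA 2 it called 1 of 7, against 9.72% of all genes (1562), and 3 had an unadjusted p under 0.05. The shares of all genes called are for the adjusted threshold, and none is given for the unadjusted p. Both siRNAs against control gave 1 of 7, Bcl3 again, against 6.91% (1110). Between siRNA 2 and siRNA 1 edgeR called 0 of 7, against 7.44% (1196), with 0 at an unadjusted p under 0.05 and 0 by DESeq2, exactTest or TMM factors. TMM factors and DESeq2 each called 2 with siRNA 2 and 2 with both, adding Lifr. Single libraries moved these counts: with siRNA 1 it was 1 without control library 1, with siRNA 2 it was 0 without control library 3 and 2 without siRNA 2 library 3, and with both it was 0 without control library 2 and 0 without control library 3.

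For 1 of 7 genes, Socs3, the libraries of siRNA 1 did not overlap control, against 15.5% of all genes tested. For siRNA 2 this was 3 of 7 (Lifr, Stat3 and Bcl3, all lower), against 19.4%. The median log2 fold change of the 7 genes was −0.015 with siRNA 1, −0.069 with siRNA 2 and −0.046 between the siRNAs. Over all genes tested the medians were 0.024, 0.029 and 0.0018, against 0.0042, 0.0040 and −0.0028 with TMM factors.

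The number of genes called in the whole table leaned on single libraries. With siRNA 1, the 751 genes became 355 without the second control library, 447 without the third and 424 without the second siRNA 1 library. The 1562 of siRNA 2 became 914 and 807 without those controls and 1015 without the first siRNA 2 library, and the 1110 of both siRNAs became 499 and 502. The 1196 genes between the siRNAs became 738 or 724 without the first or second siRNA 1 library and 757 without the first siRNA 2 library. Scaling changed the balance of directions. Of the genes called with siRNA 1, 316 were lower and 435 higher, against 400 and 346 with TMM factors and 322 and 199 with DESeq2. With siRNA 2 these counts were 571 and 991, against 734 and 728 and 549 and 409, and with both siRNAs 437 and 673, against 573 and 509 and 446 and 301. The split between the siRNAs was 475 lower and 721 higher, 523 and 692 with TMM factors, and 321 and 419 with DESeq2.

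**Figure D1:**
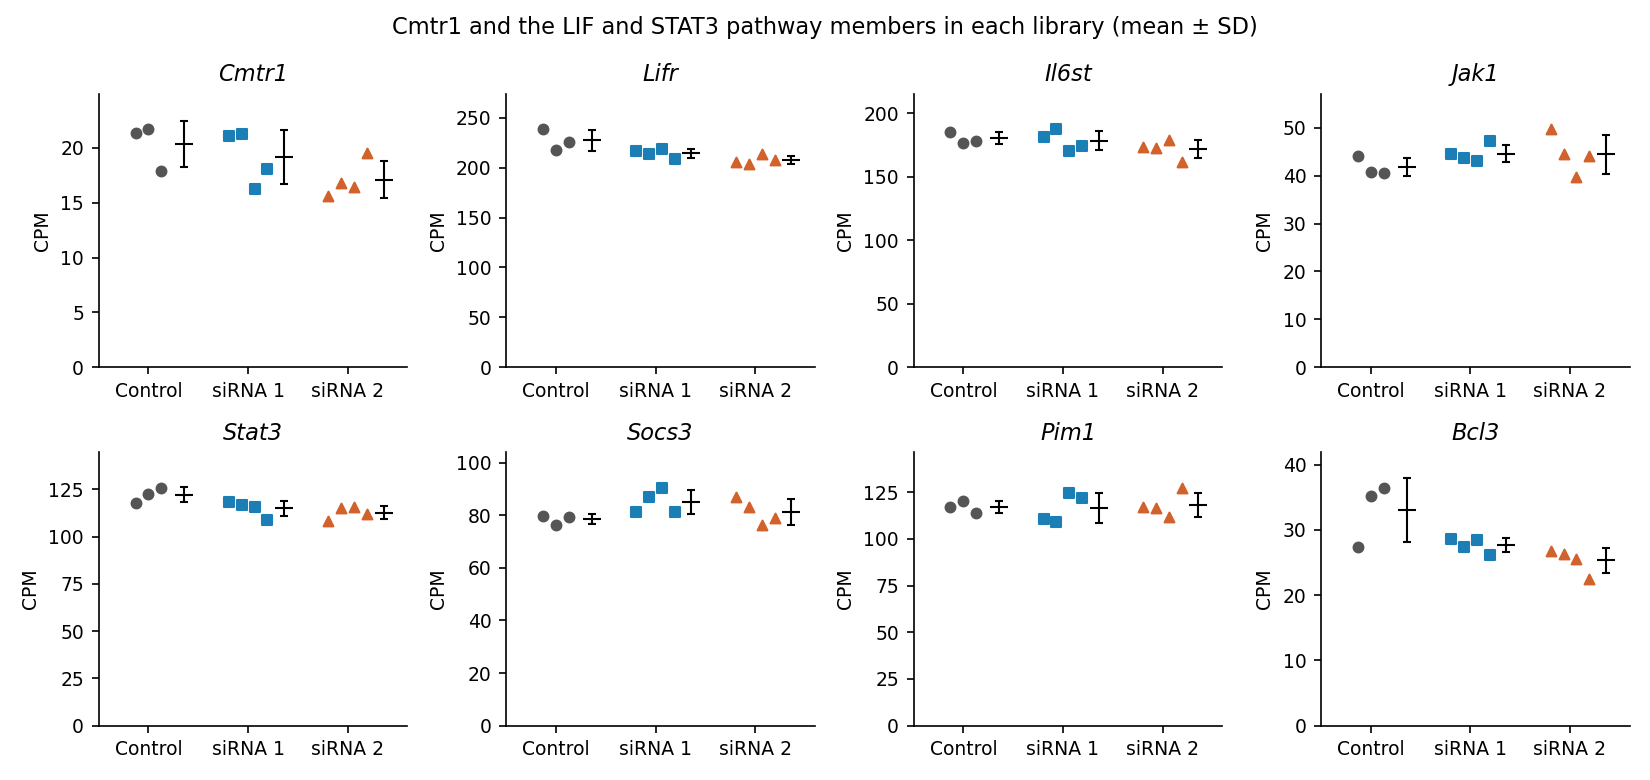
CPM of Cmtr1 and the 7 pathway genes in each library (y axes from 0), for control siRNA (circles), CMTR1 siRNA 1 (squares) and siRNA 2 (triangles), with the mean and SD of each group. For Bcl3, the first control library (27.4 CPM) sits beside the siRNA libraries and apart from the other 2 controls.

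Lifr encodes the subunit that binds LIF (ENSMUSG00000054263, chr15:7090614-7197489, plus strand). It was at 239, 218 and 226 CPM under control siRNA, against 217, 214, 219 and 208 for siRNA 1 and 206, 204, 214 and 208 for siRNA 2. All siRNA 2 libraries were below the lowest control library, and siRNA 1 libraries overlapped control by 1 library. Group means were 227 ± 10.5 (SD, n = 3), 214 ± 4.54 (n = 4) and 208 ± 4.43 CPM (n = 4). The log2 fold change was −0.085 (95% interval −0.18 to 0.0077, SE 0.046, adjusted p = 0.35) with siRNA 1. With siRNA 2 it was −0.13 (95% interval −0.22 to −0.038, SE 0.046, adjusted p = 0.0621), which was not called. The side of the threshold depended on scaling: with TMM factors Lifr was called lower with siRNA 2 (−0.16, adjusted p = 0.0256), as with DESeq2 (−0.16, adjusted p = 0.0179), over a range of 0.0179 to 0.124 in 6 alternative settings. Leaving out the third siRNA 2 library also gave a call (−0.14, adjusted p = 0.0428). For both siRNAs together the value was −0.11 (adjusted p = 0.102), called with TMM factors (adjusted p = 0.0434) and DESeq2 (0.0325), in a range of 0.0325 to 0.205.

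Il6st encodes gp130, the subunit that passes on the signal (ENSMUSG00000021756, chr13:112464070-112510086, plus strand). Its libraries read 185, 176 and 178 CPM under control siRNA, against 181, 187, 170.2 and 174 for siRNA 1 and 174, 172, 179 and 162 for siRNA 2. The 3 groups overlapped throughout, and the lowest value was the fourth siRNA 2 library. Log2 fold changes were −0.015 (95% interval −0.11 to 0.084, SE 0.049, adjusted p = 0.924) and −0.069 (95% interval −0.17 to 0.029, SE 0.049, adjusted p = 0.413). Neither was called. Within a library, Lifr was above Il6st on the scale of CPM per kb of exon, by a ratio of 1.32, 1.27 and 1.30 under control siRNA, against 1.23, 1.17, 1.32 and 1.23 for siRNA 1 and 1.22, 1.22, 1.23 and 1.32 for siRNA 2. The receptor subunits thus kept the same order of level per kb in all 11 libraries.

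Jak1, the tyrosine kinase through which gp130 chiefly signals (ENSMUSG00000028530, chr4:101152367-101265282, minus strand), was at 44.1, 40.7 and 40.6 CPM under control siRNA, against 44.5, 43.7, 43.1 and 47.2 for siRNA 1 and 49.7, 44.5, 39.6 and 44.1 for siRNA 2. Values of siRNA 2 spanned the control range on both sides, with its first library highest of all. The log2 fold change was 0.094 (95% interval −0.054 to 0.24, SE 0.073, adjusted p = 0.566) with siRNA 1 and 0.088 (95% interval −0.059 to 0.23, SE 0.073, adjusted p = 0.501) with siRNA 2. Neither interval excluded 0.

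Stat3, the transcription factor activated by the kinase (ENSMUSG00000004040, chr11:100885098-100939540, minus strand), was at 118, 122 and 126 CPM under control siRNA, against 118, 117, 115 and 109 for siRNA 1 and 108, 115, 116 and 112 for siRNA 2. The 4 siRNA 2 libraries lay below every control library, and 1 siRNA 1 library reached above the lowest control. Means were 122 ± 4.03 (SD, n = 3), 115 ± 4.16 (n = 4) and 113 ± 3.51 CPM (n = 4). With siRNA 1 the log2 fold change was −0.087 (95% interval −0.19 to 0.018, SE 0.052, adjusted p = 0.41), and with siRNA 2 −0.11 (95% interval −0.22 to −0.010, SE 0.052, adjusted p = 0.165), so Stat3 was not called with either. Its adjusted p with siRNA 2 ran from 0.0817 to 0.327 over the 6 alternative settings.

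Socs3 is the feedback inhibitor and a direct STAT3 target (ENSMUSG00000053113, chr11:117966079-117970047, minus strand). It read 79.7, 76.5 and 79.4 CPM under control siRNA, against 81.2, 86.9, 90.5 and 81.1 for siRNA 1 and 87.1, 83.0, 76.2 and 78.8 for siRNA 2. Every siRNA 1 library was above every control library, while those of siRNA 2 fell on both sides of control. The means were 78.5 ± 1.80 (SD, n = 3), 84.9 ± 4.58 (n = 4) and 81.3 ± 4.80 CPM (n = 4). The log2 fold change was 0.11 (95% interval −0.0059 to 0.23, SE 0.059, adjusted p = 0.327) with siRNA 1 and 0.049 (95% interval −0.071 to 0.17, SE 0.060, adjusted p = 0.678) with siRNA 2. Neither was called, and the difference between the siRNAs was −0.065 (95% interval −0.18 to 0.046, SE 0.055, adjusted p = 0.548).

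STAT3 binds DNA as a dimer at a palindrome, commonly written TTCNNNGAA, which reads the same on both strands. The letters were searched in RefSeq windows of GRCm38.p6 that run from 250 bases before to 50 bases after a RefSeq start of the gene. They occurred in 2726 of 32851 such windows (8.30%). The 7 pathway genes had 9 windows, and 1 window, that of Socs3, held a match. The match began 154 bases before the RefSeq start of that window (position −154). The whole window lies within the annotated span of Socs3 given above, so the match is upstream of the RefSeq start but inside the annotated gene. Of the other pathway genes described below, 41 of 55 had 62 windows, and 3 of those genes (Gab1, Cish and Sgk1) had a match. A match is a description, not a site or a cause. The Socs3 window is shown because it is the one match among the 7 genes, at chr11:117969317-117969616 on the minus strand, with the matching letters in capitals.
Socs3: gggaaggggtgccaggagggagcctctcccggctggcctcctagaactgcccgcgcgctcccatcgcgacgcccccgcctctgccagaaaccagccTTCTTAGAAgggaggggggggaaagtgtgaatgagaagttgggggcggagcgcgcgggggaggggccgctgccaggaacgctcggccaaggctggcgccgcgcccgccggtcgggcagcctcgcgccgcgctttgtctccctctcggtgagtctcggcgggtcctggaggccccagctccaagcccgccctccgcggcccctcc

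Pim1 encodes a serine/threonine kinase that supports survival and growth downstream of STAT3 (ENSMUSG00000024014, chr17:29490753-29496112, plus strand). It was at 117, 121 and 114 CPM under control siRNA, against 111, 109, 125 and 122 for siRNA 1 and 117, 117, 112 and 127 for siRNA 2. The groups overlapped, with libraries of each siRNA above and below the control range. Log2 fold changes were −0.0096 (95% interval −0.12 to 0.10, SE 0.056, adjusted p = 0.958) and 0.013 (95% interval −0.10 to 0.13, SE 0.056, adjusted p = 0.926), and the sign of the siRNA 2 value turned with TMM factors (−0.012), DESeq2 (−0.016), the replicate block (−0.019), and without the third control library (−0.0068) or the fourth siRNA 2 library (−0.025). Pim1 lies 164 kb upstream of Cmtr1 on chromosome 17, on the same strand. On the other strand, 14.5% of its exon length overlaps Gm26885, which was at 4.71 to 6.22 CPM in control, 6.15 to 7.72 with siRNA 1 and 8.35 to 8.90 with siRNA 2. As that setting is not given, reads of Pim1 and Gm26885 over that stretch cannot be told apart.

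Bcl3 encodes a nuclear protein of the IκB family that acts as a transcriptional coactivator (ENSMUSG00000053175, chr7:19808462-19822770, minus strand). It was at 27.4, 35.3 and 36.5 CPM under control siRNA, against 28.6, 27.4, 28.4 and 26.2 for siRNA 1 and 26.8, 26.4, 25.6 and 22.5 for siRNA 2. Control libraries 2 and 3 were above all others, and control library 1 lay within the siRNA 1 values and just above the highest siRNA 2 value. Means were 33.1 ± 4.92 (SD, n = 3), 27.7 ± 1.11 (n = 4) and 25.3 ± 1.97 CPM (n = 4), from 182 to 286 reads per library. With siRNA 2, Bcl3 fell by 0.38 on the log2 scale (SE 0.089, 95% interval −0.56 to −0.21, adjusted p = 0.00321), to 76.6% of control, in 4 of 4 libraries. With siRNA 1 the value was −0.26 (95% interval −0.43 to −0.078, SE 0.088, adjusted p = 0.0874) and was not called, with libraries overlapping control. The difference between the siRNAs was −0.13 (95% interval −0.30 to 0.045, SE 0.086, adjusted p = 0.421), so the call with one siRNA and not the other does not show that they differed. For both siRNAs together it was −0.32 (95% interval −0.48 to −0.16, SE 0.078, adjusted p = 0.00681).

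The Bcl3 calls rested on the control libraries. The call with siRNA 2 held in 6 of 6 alternative settings (adjusted p 0.000745 to 0.00876) and was lost without control library 3 (−0.31, adjusted p = 0.0575). The call for both siRNAs was lost without control library 2 (−0.27, adjusted p = 0.108) or 3 (−0.25, adjusted p = 0.133). Without control library 1 Bcl3 was also called with siRNA 1 (−0.38, adjusted p = 0.00882), against 0.0601 to 0.166 over the settings that kept all libraries. Of the Bcl3 exon length, 6.51% overlaps Gm16175 on the other strand, which had at most 1 read in any library. The Bcl3 promoter window is printed as that of the 1 called gene among the 7, at chr7:19822706-19823005 on the minus strand of GRCm38.p6. It holds no TTCNNNGAA, which says only that these letters are not in this window, and so it has no capitals.
Bcl3: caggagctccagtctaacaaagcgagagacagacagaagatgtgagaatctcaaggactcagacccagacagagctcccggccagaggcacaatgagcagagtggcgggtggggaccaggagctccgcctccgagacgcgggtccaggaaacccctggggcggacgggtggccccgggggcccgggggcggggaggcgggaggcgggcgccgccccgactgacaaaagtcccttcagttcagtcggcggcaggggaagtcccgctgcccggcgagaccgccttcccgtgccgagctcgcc

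**Figure D2:**
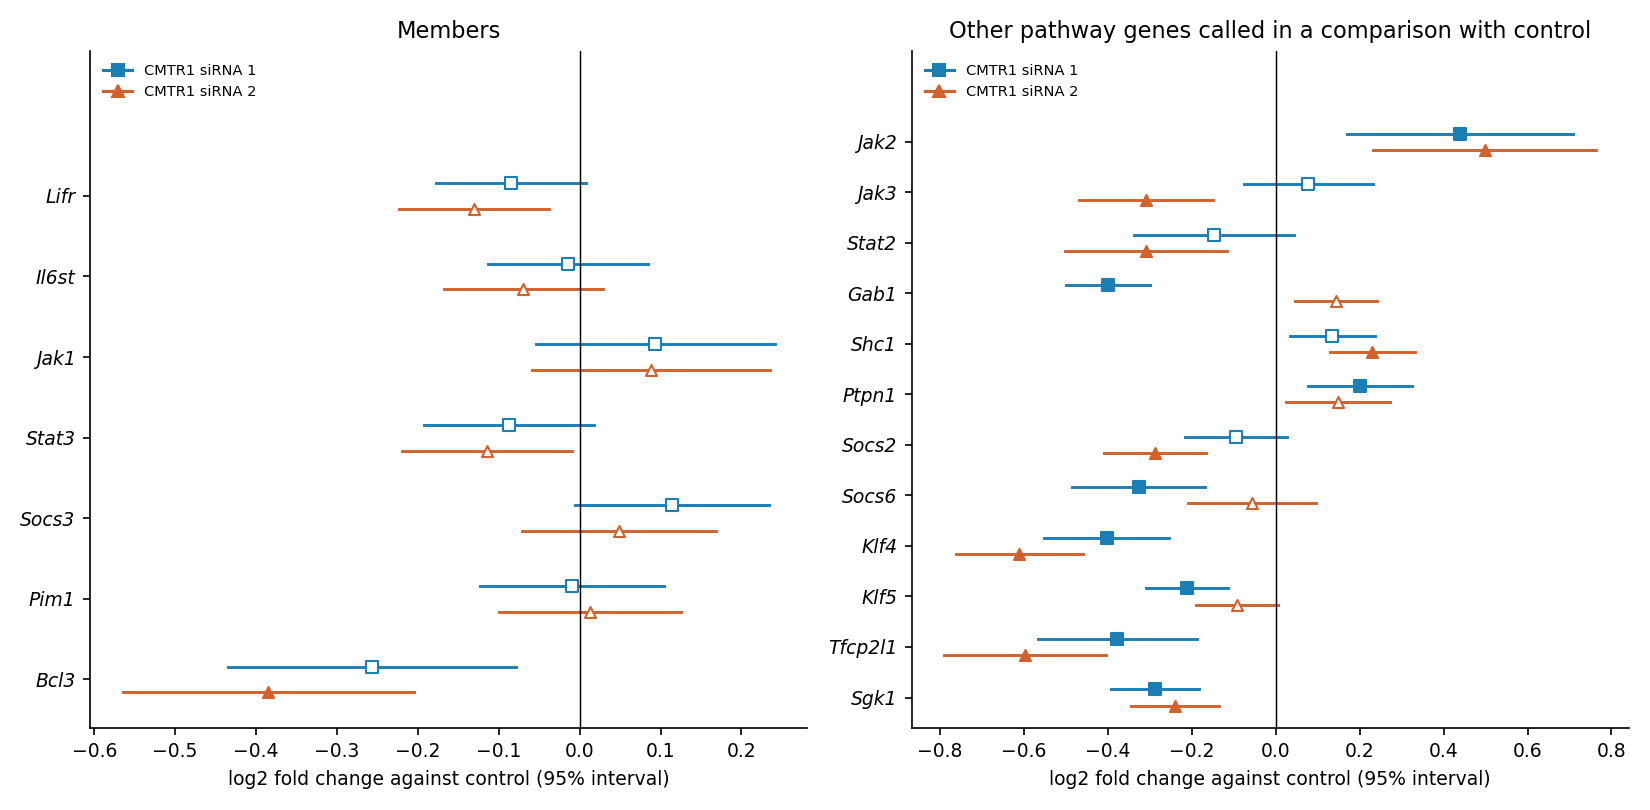
Log2 fold change against control with its 95% interval (x axis) for the 7 pathway genes (left) and for the 12 other pathway genes called in any comparison with control (right), with CMTR1 siRNA 1 as squares, siRNA 2 as triangles, and filled symbols for calls. Among the 7 genes the filled symbol is Bcl3 with siRNA 2, and on the right the intervals of Gab1 lie on opposite sides of 0.

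A wider list of 55 genes of the pathway held its other ligands, receptor subunits, JAKs, STATs, adaptors, phosphatases, inhibitors and further STAT3 targets. Of these, 49 passed the filter, and the cytokine genes Il6, Il11, Osm, Cntf and Il27 and the receptor gene Osmr did not. With siRNA 1, 8 of the 49 were called (6 lower, 2 higher), against 4.67% of all genes tested, and with siRNA 2 also 8 (6 lower, 2 higher), against 9.72%. Both siRNAs together gave 8 (5 lower, 3 higher), against 6.91%, and 12 genes were called in at least 1 of these 3 comparisons. Between the siRNAs there were 5 calls (2 lower and 3 higher with siRNA 2), against 7.44%. No test was made over the list. The split by direction differed between tools. With siRNA 1, TMM factors gave 8 lower and 0 higher, DESeq2 gave 7 lower and 0 higher, and exactTest gave 7 lower and 2 higher. With siRNA 2, TMM factors and exactTest each gave 6 lower and 2 higher, and DESeq2 gave 6 lower and 1 higher. For both siRNAs, TMM factors gave 7 lower and 2 higher, DESeq2 gave 6 lower and 2 higher, and exactTest gave 3 lower and 2 higher. Between the siRNAs, TMM factors and exactTest each gave 2 lower and 3 higher, and DESeq2 gave 1 lower and 3 higher. Medians were −0.054 with siRNA 1, −0.016 with siRNA 2 and 0.048 between them, beside 0.024, 0.029 and 0.0018 for all genes tested. Without control library 2 the count with siRNA 1 was 5, and it was 5 without control library 3 and 5 without the second siRNA 1 library. Without control library 3 the count with siRNA 2 was 5. For both siRNAs it was 5 and 4 without control libraries 2 and 3, and between the siRNAs 3 without the second siRNA 2 library.

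Among the ligand genes, 3 of 8 passed the filter. Against control, edgeR, DESeq2, exactTest and TMM factors called 0 of these with either siRNA. Of all genes tested, edgeR called 4.67% with siRNA 1 and 9.72% with siRNA 2. The ligand genes had 1 at an unadjusted p under 0.05 in edgeR for each siRNA. Lif itself, the most abundant of them per kb of exon, was at 7.62, 7.89 and 6.73 CPM under control siRNA, against 9.35, 9.22, 9.64 and 9.62 for siRNA 1 and 9.80, 10.98, 10.1 and 8.03 for siRNA 2. Every siRNA library was above every control library. The log2 fold changes were 0.35 (95% interval 0.059 to 0.64, SE 0.14, adjusted p = 0.177) and 0.39 (95% interval 0.10 to 0.67, SE 0.14, adjusted p = 0.0732), which did not pass, though without the fourth siRNA 2 library the latter did (0.47, adjusted p = 0.0327), against 0.0585 to 0.224 over the settings with all libraries. Of the other receptor subunits, 4 of 5 passed the filter. Of these 4, edgeR, DESeq2, exactTest and TMM factors called 0 with either siRNA, against 4.67% and 9.72% of all genes in edgeR. In edgeR 2 subunits had an unadjusted p under 0.05 for siRNA 1 and 0 for siRNA 2. For these and the ligand genes no share of all genes is given at that cut. Cntfr, the binding subunit for ciliary neurotrophic factor, was the most abundant per kb, at 52.7, 45.3 and 49.1 CPM under control siRNA, against 60.7, 60.4, 52.8 and 50.3 for siRNA 1 and 54.7, 59.1, 45.4 and 46.1 for siRNA 2. Its groups overlapped, with log2 fold changes of 0.19 (adjusted p = 0.181) and 0.068 (adjusted p = 0.67). The first was called in 1 of 6 settings, with the replicate number as a block (0.24, adjusted p = 0.0365, range 0.0365 to 0.405).

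The other JAK genes differed in direction with siRNA 2, and their values were all above 0 with siRNA 1. Jak2, a kinase that also binds gp130, was at 9.14, 9.004 and 8.08 CPM under control siRNA, against 10.7, 10.97, 11.9 and 13.9 for siRNA 1 and 10.5, 13.1, 12.9 and 12.7 for siRNA 2. All 8 siRNA libraries exceeded the 3 controls. On the log2 scale Jak2 rose with siRNA 1 by 0.44 (95% interval 0.17 to 0.71, SE 0.13, adjusted p = 0.0459) and with siRNA 2 by 0.50 (95% interval 0.23 to 0.76, SE 0.13, adjusted p = 0.0108). The siRNA 1 call was lost in 4 of 6 alternative settings (adjusted p 0.0347 to 0.139), and without any 1 of control libraries 1, 2 and 3 or siRNA 1 libraries 2, 3 and 4, with adjusted p from 0.0609 to 0.185. The siRNA 2 call was lost with DESeq2 (adjusted p = 0.0501, range 0.00545 to 0.0501) and without control library 3 (0.45, adjusted p = 0.0721).

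Jak3, known from signalling by receptors with the common gamma chain, was at 38.2, 42.7 and 45.9 CPM under control siRNA, against 46.3, 43.1, 43.6 and 45.4 for siRNA 1 and 30.0, 34.1, 39.1 and 33.0 for siRNA 2. The siRNA 2 libraries were mostly low, with 1 above the lowest control, and siRNA 1 libraries lay near the upper controls. Jak3 fell with siRNA 2 by 0.31 on the log2 scale (SE 0.079, adjusted p = 0.00775), and the value with siRNA 1 was 0.078 (adjusted p = 0.672). Without control library 3 the siRNA 2 call was lost (−0.25, adjusted p = 0.0962). Tyk2, the remaining JAK, was 0.014 (adjusted p = 0.948) and −0.13 (adjusted p = 0.237), and was not called.

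Stat2, a transcription factor of the interferon pathway and the most abundant of the other STAT genes per kb of exon, was at 23.2, 28.2 and 28.7 CPM under control siRNA, against 23.9, 23.3, 24.0 and 25.3 for siRNA 1 and 17.9, 21.2, 25.1 and 21.9 for siRNA 2. Control library 1 lay inside the siRNA range and the other controls above it. It fell with siRNA 2 by 0.31 on the log2 scale (SE 0.096, adjusted p = 0.0323), and was −0.15 (adjusted p = 0.46) with siRNA 1. The call was lost without control library 2 (−0.27, adjusted p = 0.163), control library 3 (−0.26, 0.179), siRNA 2 library 1 (−0.24, 0.146) or siRNA 2 library 2 (−0.30, 0.0674).

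Adaptors and phosphatases link gp130 to other signals or end the signal by removing phosphate. Gab1, a docking protein that couples gp130 to the MAPK and PI3K routes, gave the largest difference between the siRNAs in the list. It was at 283, 297 and 286 CPM under control siRNA, against 203, 212, 233 and 227 for siRNA 1 and 333, 332, 296 and 314 for siRNA 2. The siRNA 1 libraries were all below control. With siRNA 2, 3 libraries were above control and 1 was inside its range. Gab1 fell with siRNA 1 by 0.40 on the log2 scale (SE 0.049, 95% interval −0.50 to −0.30, adjusted p = 5.57e-07), in 6 of 6 settings and with any 1 library left out. With siRNA 2 the value was 0.14 (95% interval 0.046 to 0.24, SE 0.049, adjusted p = 0.0508), called with the stricter filter (adjusted p = 0.047, range 0.047 to 0.209) and without siRNA 1 library 1 (0.14, 0.0367), siRNA 1 library 3 (0.14, 0.0443) or siRNA 2 library 3 (0.18, 0.0115). The sequence around its TTCNNNGAA match is shown as that of a called gene, with 10 bases on each side and the match in capitals. It lies on the minus strand of GRCm38.p6 at chr8:80880473-80880501, in 2 overlapping windows of the gene.
Gab1: ccggaggagtTTCAGAGAAagtctgggct

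Shc1, an adaptor to the RAS route, was at 144, 151 and 152 CPM under control siRNA, against 153, 169, 173 and 158 for siRNA 1 and 172, 180.4, 176 and 169.9 for siRNA 2. All siRNA libraries were above control. Shc1 rose with siRNA 2 by 0.23 (95% interval 0.13 to 0.33, SE 0.050, adjusted p = 0.00175), in 4 of 4 libraries, while the value with siRNA 1 was 0.13 (adjusted p = 0.125). Ptpn1, a tyrosine phosphatase that acts on JAKs, was at 54.3, 55.0 and 54.2 CPM under control siRNA, against 61.3, 64.6, 63.0 and 61.7 for siRNA 1 and 58.7, 63.8, 58.4 and 60.5 for siRNA 2. Here too the siRNA libraries all exceeded control. It rose with siRNA 1 by 0.20 (SE 0.062, adjusted p = 0.0476), a call lost in 4 of 6 alternative settings (range 0.0398 to 0.167). It was also lost without any 1 of the 3 control libraries, the 4 siRNA 1 libraries or siRNA 2 library 1, with adjusted p from 0.0526 to 0.154. With siRNA 2 Ptpn1 was 0.15 (adjusted p = 0.127). 

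SOCS proteins block receptors and JAKs. Of the 7 SOCS genes besides Socs3, 1 was called with siRNA 1, against 4.67% of all genes tested, and 1 with siRNA 2, against 9.72%. Socs2 was at 68.6, 69.6 and 75.2 CPM under control siRNA, against 65.6, 65.2, 67.5 and 67.9 for siRNA 1 and 56.3, 55.7, 60.5 and 60.4 for siRNA 2. Its libraries did not overlap, in the order control, siRNA 1, siRNA 2 from high to low. Socs2 fell with siRNA 2 by 0.29 on the log2 scale (SE 0.061, adjusted p = 0.0012), with −0.095 (adjusted p = 0.447) for siRNA 1. Socs6 was at 39.6, 38.1 and 39.6 CPM under control siRNA, against 28.2, 32.0, 30.6 and 33.5 for siRNA 1 and 33.5, 41.2, 37.3 and 37.8 for siRNA 2. It was low in every siRNA 1 library, and siRNA 2 libraries overlapped both other groups. Socs6 fell with siRNA 1 by 0.33 on the log2 scale (SE 0.078, adjusted p = 0.00746), with −0.057 (adjusted p = 0.708) for siRNA 2. These calls of Socs2 with siRNA 2 and Socs6 with siRNA 1 held in 6 of 6 alternative settings and with any 1 library left out.

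Socs4, the most abundant of the other SOCS genes per kb of exon, was 0.15 (adjusted p = 0.262) and 0.16 (adjusted p = 0.127) on the log2 scale, and was called with siRNA 2 without control library 1 (0.25, adjusted p = 0.034, against 0.119 to 0.341 with all libraries). The PIAS genes encode nuclear inhibitors of STATs. Of the 4, edgeR, DESeq2, exactTest and TMM factors called 0 with either siRNA, against 4.67% and 9.72% of all genes in edgeR. In edgeR 1 of the PIAS genes had an unadjusted p under 0.05 for siRNA 1 and 0 for siRNA 2. No share of all genes is given at that cut. Pias2, the most abundant of them per kb, was −0.12 (adjusted p = 0.206) and −0.052 (adjusted p = 0.583). Cish, a SOCS family gene known as a STAT5 target, was at 4.45 to 6.68 CPM over the 11 libraries. Its window, named here after the search, held 2 matches to TTCNNNGAA that overlap in the bases printed. They lie on the plus strand of GRCm38.p6 at chr9:107296649-107296677 and chr9:107296660-107296688, each with its own match in capitals, and are shown because no other window of the list held 2.
Cish match 1: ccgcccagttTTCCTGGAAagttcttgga
Cish match 2: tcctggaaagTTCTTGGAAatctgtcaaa

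Of 14 STAT3 target genes besides Socs3, Pim1 and Bcl3, 4 fell with siRNA 1 (Klf4, Klf5, Tfcp2l1 and Sgk1), against 4.67% of all genes called, and 3 with siRNA 2 (Klf4, Tfcp2l1 and Sgk1), against 9.72%. Values were below 0 for 11 of the 14 with siRNA 1 and 9 with siRNA 2, beside 43.2% and 42.9% of all genes tested. An unadjusted p under 0.05 was found for 9 with siRNA 1 and 4 with siRNA 2, with no share of all genes given at that cut. Of the 14, edgeR, DESeq2, exactTest and TMM factors called 0 higher with either, with 1 higher at an unadjusted p under 0.05 in edgeR for each siRNA. The others ran from −0.43 (Ier3) to 0.20 (Gbx2) with siRNA 1 and from −0.39 (Ier3) to 0.12 (Pim2) with siRNA 2, none called. Myc, among the others (−0.20 with siRNA 1, adjusted p = 0.0542), was called lower by DESeq2, exactTest and TMM factors. Myc and the genes at the ends were named after their values were seen. The median of the 14 was −0.14 with siRNA 1 and −0.031 with siRNA 2, beside 0.024 and 0.029 for all genes tested. The all-gene medians depended on scaling, at 0.0042 and 0.0040 with TMM factors, and no test was made over the list.

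Klf4 encodes a transcription factor of the naive pluripotent state that LIF maintains through STAT3. It was at 56.2, 62.8 and 58.7 CPM under control siRNA, against 42.7, 39.4, 52.6 and 44.6 for siRNA 1 and 35.8, 39.0, 40.2 and 40.0 for siRNA 2. Each siRNA library was below each control library, and the lowest was the first of siRNA 2. Klf4 fell by 0.40 on the log2 scale with siRNA 1 (95% interval −0.55 to −0.25, SE 0.074, adjusted p = 0.000356), and by 0.61 with siRNA 2 (95% interval −0.76 to −0.46, SE 0.075, adjusted p = 1.47e-07). These are 75.6% and 65.5% of control. The difference between the siRNAs was −0.21 (95% interval −0.36 to −0.060, SE 0.073, adjusted p = 0.0723), called without siRNA 1 library 2 (−0.27, adjusted p = 0.0307, against 0.0609 to 0.133 with all libraries). Both calls against control held in 6 of 6 settings and with any 1 library left out.

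Tfcp2l1, a factor through which STAT3 sustains self-renewal, was at 86.7, 109 and 109 CPM under control siRNA, against 60.3, 71.2, 90.9 and 89.5 for siRNA 1 and 55.5, 58.7, 74.0 and 79.8 for siRNA 2. With siRNA 2 all libraries were below control, and siRNA 1 overlapped control at its upper end. In both siRNA groups libraries 1 and 2 were low and libraries 3 and 4 high, and control library 1 was the lowest control. Tfcp2l1 fell by 0.38 on the log2 scale with siRNA 1 (SE 0.094, adjusted p = 0.0106), and by 0.60 with siRNA 2 (SE 0.096, adjusted p = 2.85e-05). The siRNA 1 call was lost with DESeq2 (−0.40, adjusted p = 0.243, range 1.61e-07 to 0.243) and without control library 2 (−0.32, 0.111), control library 3 (−0.32, 0.0974), siRNA 1 library 1 (−0.28, 0.0663) or siRNA 1 library 2 (−0.33, 0.0631).

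Sgk1 encodes a serum and glucocorticoid induced kinase. It was at 176, 178 and 175 CPM under control siRNA, against 131, 147, 149 and 151 for siRNA 1 and 146, 143, 147 and 161 for siRNA 2. The controls lay close together and above all siRNA libraries. Sgk1 fell by 0.29 on the log2 scale with siRNA 1 (SE 0.052, adjusted p = 0.000312), and by 0.24 with siRNA 2 (SE 0.052, adjusted p = 0.00164), with a difference between them of 0.048 (adjusted p = 0.64). Klf5, another pluripotency factor, was at 159.7, 169 and 171 CPM under control siRNA, against 141, 142, 142 and 150.1 for siRNA 1 and 152, 161, 155 and 157 for siRNA 2. All siRNA 1 libraries were below control, and siRNA 2 libraries reached into it. Klf5 fell by 0.21 with siRNA 1 on that scale (SE 0.049, adjusted p = 0.00479) and was −0.092 (adjusted p = 0.242) with siRNA 2. The test between the siRNAs gave 0.12 (adjusted p = 0.0995). Mcl1, a survival gene and the most abundant target of the list per kb of exon, was −0.11 (adjusted p = 0.196) and −0.016 (adjusted p = 0.889). Of the called targets, Sgk1 held a TTCNNNGAA match in 1 of its 6 windows, on the plus strand of GRCm38.p6 at chr10:21881951-21881979, shown with the match in capitals and 10 bases on each side.
Sgk1: gaaaaaccaaTTCAAAGAAccctcccaag

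**Figure D3:**
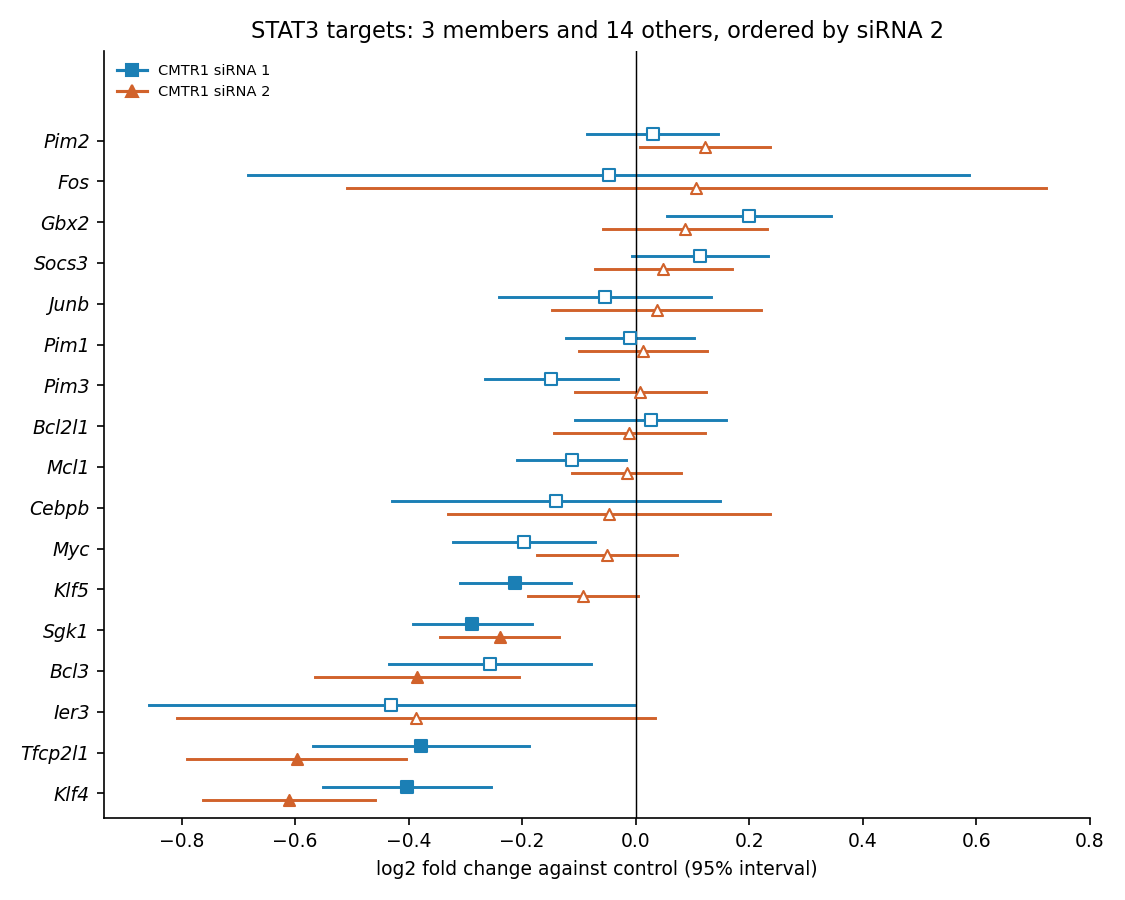
Log2 fold change against control with its 95% interval (x axis) for Socs3, Pim1, Bcl3 and 14 other STAT3 target genes, ordered by the siRNA 2 value (siRNA 1 squares, siRNA 2 triangles, filled where called). Klf4, Tfcp2l1 and Sgk1 are filled with both siRNAs, Klf5 with siRNA 1 and Bcl3 with siRNA 2.

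The siRNAs were then set against each other, which asks where the same target gene gave different responses. Of the 49 other pathway genes, 5 were called, against 7.44% of all genes tested. Gab1 was 0.54 higher with siRNA 2 than with siRNA 1 on the log2 scale (SE 0.046, 95% interval 0.45 to 0.64, adjusted p = 1.95e-11), and all its siRNA 2 libraries were above all siRNA 1 libraries. Jak3 was lower with siRNA 2, at −0.39 (SE 0.073, adjusted p = 0.000385). Grb2, the adaptor that binds Gab1 and Shc1 and is named here after its values were seen, was at 74.3, 79.6 and 78.5 CPM under control siRNA, against 65.6, 69.4, 67.8 and 69.8 for siRNA 1 and 79.8, 83.2, 77.9 and 76.8 for siRNA 2. Its siRNA 1 libraries were below those of both other groups, and the difference was 0.22 (SE 0.054, adjusted p = 0.00684). The calls of Gab1, Jak3 and Grb2 held in 6 of 6 settings and with any 1 library left out. Against control Grb2 was −0.18 (adjusted p = 0.0571) with siRNA 1, called by DESeq2 and TMM factors, and 0.037 (adjusted p = 0.753) with siRNA 2. Socs6 differed by 0.27 (SE 0.073, adjusted p = 0.0165), lost without siRNA 1 library 1 (0.23, 0.0813) or siRNA 2 library 2 (0.22, 0.0837). Socs2 differed by −0.19 (SE 0.057, adjusted p = 0.029), a call lost in 2 of 6 settings (range 0.0232 to 0.0551) and without any 1 siRNA 1 library or siRNA 2 library 1 or 2 (adjusted p 0.0514 to 0.0917). Tfcp2l1 was −0.22 (adjusted p = 0.146), and was called in 2 of 6 settings, without the filter and with the replicate number as a block, and without siRNA 1 library 1 (−0.32, 0.0187) or siRNA 2 library 4 (−0.32, 0.0364), in a range of 0.00961 to 0.557 with all libraries.

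**Figure D4:**
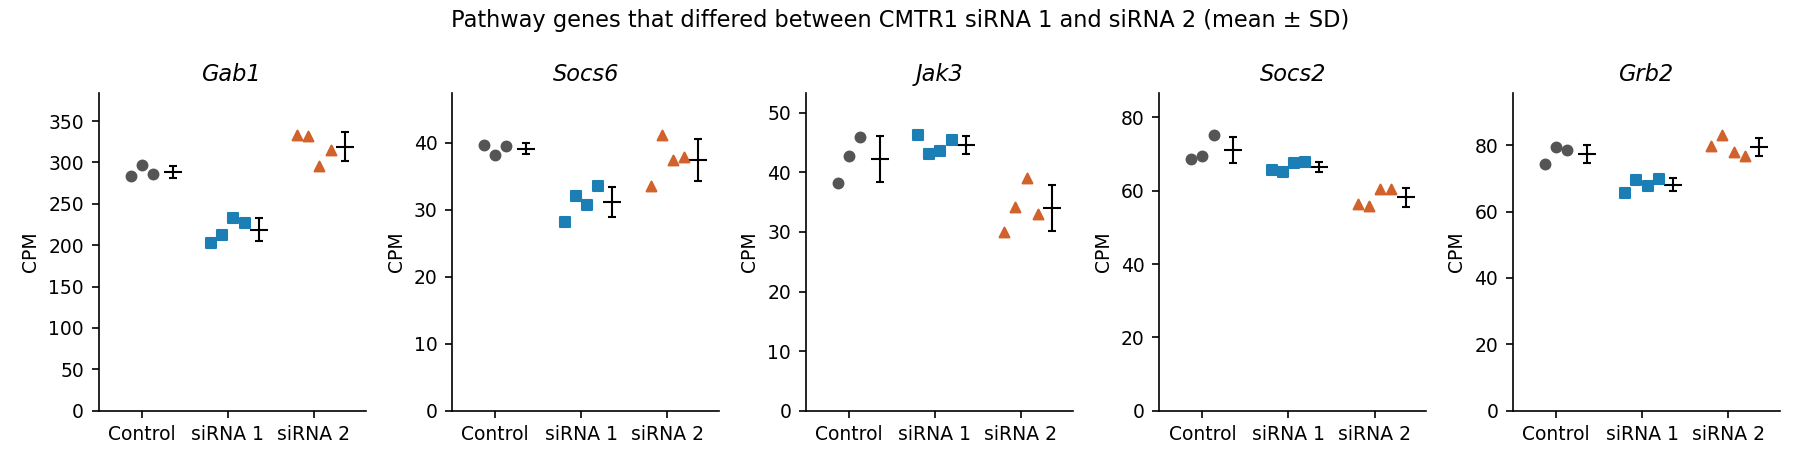
CPM in each library (y axes from 0) of the 5 pathway genes called between CMTR1 siRNA 1 (squares) and siRNA 2 (triangles), with control (circles) and the mean and SD of each group. For Gab1, Socs6 and Grb2 the siRNA 1 libraries are the low ones, and for Jak3 and Socs2 those of siRNA 2.

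Markers of the cells present were read beside these genes. The 9 ESC markers were all measured, and summed to 2030.3, 2140.2 and 2077 CPM under control siRNA, against 1720.4, 1779, 1898 and 1845 for siRNA 1 and 1855, 1883, 1819 and 1903 for siRNA 2. The sums were lower in every siRNA library than in any control. With siRNA 1, 6 of 9 fell (Pou5f1, Nanog, Zfp42, Esrrb, Dppa5a and Fgf4), against 4.67% of all genes called, and with siRNA 2, 4 of 9 (Nanog, Zfp42, Esrrb and Fgf4), against 9.72%, and no test was made over the list. TMM factors and DESeq2 called 7 with siRNA 1, adding Tdgf1 (−0.15 in edgeR, adjusted p = 0.0741), and 4 with siRNA 2. Nanog was at 76.3, 92.3 and 88.4 CPM under control siRNA, against 49.7, 49.1, 69.7 and 62.8 for siRNA 1 and 47.3, 53.8, 67.9 and 66.1 for siRNA 2, all siRNA libraries below control. Its log2 fold changes were −0.57 (adjusted p = 5.44e-05) and −0.54 (adjusted p = 5.04e-05), and those of Dppa5a, the most abundant per kb, −0.25 (adjusted p = 0.00313) and −0.13 (adjusted p = 0.138). The siRNA 1 call of Pou5f1 (−0.16, adjusted p = 0.0332) was lost with the replicate number as a block (adjusted p = 0.0586, range 0.0113 to 0.0586) and without any 1 of the control libraries or siRNA 1 libraries 1, 2 and 4 (adjusted p 0.0615 to 0.193). Dppa5a with siRNA 2 was called with the block (0.0455, range 0.0455 to 0.153) and without siRNA 2 library 4 (−0.18, 0.0286). 

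The same siRNA libraries stood apart for several of these genes, a pattern named after the values were seen. In both siRNA groups libraries 1 and 2 were below libraries 3 and 4 for the ESC markers Nanog, Zfp42, Esrrb and Sox2 and, of the 14 targets, for Klf4, Tfcp2l1 and Sgk1. They were above them for the ESC marker Utf1 and the target Gbx2. The other ESC markers were parted this way in 1 siRNA group only, Dppa5a, Tdgf1 and Fgf4 with libraries 1 and 2 of siRNA 1 low, and Pou5f1 with those of siRNA 2 high. Bcl3 was not low in libraries 1 and 2, which were the higher ones with siRNA 2. The calls of Nanog, Klf4, Tfcp2l1 and Sgk1 against control held with each siRNA under the replicate block. The labels name no batch. The part these markers have in the values of Klf4, Tfcp2l1, Bcl3 and the other targets was not tested, nor was that of this pattern.

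Fibroblast markers summed to 27.8, 23.3 and 27.6 CPM under control siRNA, against 28.5, 27.9, 27.2 and 24.7 for siRNA 1 and 34.2, 39.0, 34.2 and 38.9 for siRNA 2, where all libraries were the highest. Of the 7, 5 passed the filter, and Postn and Lum had at most 1 read in any library. Col1a1, the most abundant per kb, rose with siRNA 2 by 0.75 (adjusted p = 6.42e-05) and Dcn by 1.13 (0.00209), while Col3a1, at 2 to 17 reads, fell by 1.42 (0.018), lost without control library 1 (−1.12, 0.139) or siRNA 2 library 2 (−1.32, 0.0525) or 4 (−1.15, 0.071). DESeq2 called Col1a1 but neither Dcn nor Col3a1, for which it gave no adjusted p. Neural markers summed to 152, 151 and 152 CPM under control siRNA, against 185, 179, 164 and 163 for siRNA 1 and 177, 191, 164 and 159.8 for siRNA 2, higher in every siRNA library than in any control. Libraries 1 and 2 of each siRNA were above libraries 3 and 4 in this sum, as they were for Nes and Sox1 in the list. Of the 5, 4 passed the filter, Tubb3 was the most abundant per kb, and Neurog2 had at most 2 reads. Pax6 in this list was at 9.40, 12.3 and 9.42 CPM under control siRNA, against 12.9, 16.3, 12.4 and 12.4 for siRNA 1 and 9.23, 8.11, 7.41 and 9.01 for siRNA 2, above all controls with siRNA 1 and below them with siRNA 2, with 0.38 (adjusted p = 0.0887) and −0.30 (adjusted p = 0.188). The median of the list was 0.26 with siRNA 1 and 0.020 with siRNA 2. Nes rose with siRNA 1 (0.26, adjusted p = 0.0152) and siRNA 2 (0.45, adjusted p = 6.23e-06). The siRNA 1 call of Nes was lost with DESeq2 (adjusted p = 0.051, range 0.00658 to 0.051) and without control library 2 (0.20, 0.168) or siRNA 1 library 1 (0.22, 0.0637) or 2 (0.24, 0.0661).

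Trophoblast markers (6 genes, Tfap2c most abundant per kb, Elf5 at 0 or 1 read) summed to 40.5, 44.3 and 47.4 CPM under control siRNA, against 52.4, 48.5, 48.3 and 45.8 for siRNA 1 and 37.9, 39.8, 36.0 and 37.7 for siRNA 2. The siRNA 2 sums were below all controls, and those of siRNA 1 overlapped control or exceeded it. For the other lists the groups overlapped. Their sums ran from 36.6 to 49.8 CPM for endoderm (7 genes, Dab2 most abundant per kb, Afp and Ttr at 0 to 2 reads) and 5.13 to 8.61 for mesoderm (5 genes, T most abundant, Hand2 and Mesp1 at 0 to 3 reads), and reached 12.1 for macrophages (4 genes, nearly all of it Cd68, with Ptprc, Csf1r and Adgre1 at 0 to 3 reads). In these 4 lists, 5 trophoblast, 4 endoderm and 2 mesoderm genes and 1 macrophage gene passed the filter. Of them, edgeR, DESeq2, exactTest and TMM factors called 0 with either siRNA, against 4.67% and 9.72% of all genes in edgeR. An unadjusted p under 0.05 in edgeR was found for 2 with siRNA 1 and 3 with siRNA 2, with no share of all genes given at that cut. Tfap2c with siRNA 2 (−0.22, adjusted p = 0.0896, range 0.058 to 0.137) was called without control library 1 (−0.31, adjusted p = 0.0334).

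Levels of the 7 genes were ordered per kb of exon over the 11 libraries. Pim1 was highest at 34.9 ± 1.75 CPM per kb (SD, n = 11), followed by Socs3 at 28.3 ± 1.59 and Lifr at 19.99 ± 0.933 CPM per kb. Then came Il6st at 15.9 ± 0.648, Stat3 at 12.2 ± 0.556, Bcl3 at 11.4 ± 1.66 and Jak1 at 6.06 ± 0.404 CPM per kb. Neighbours in this order were apart by more than their SDs except Stat3 and Bcl3, whose order was turned in control libraries 2 and 3 but not in control library 1. Bcl3 was at 11.1, 14.3 and 14.7 CPM per kb in control libraries 1 to 3, and Stat3 at 12.4, 12.9 and 13.2 CPM per kb. Jak1 was thus the least abundant of the 7 RNAs per kb and 2 targets of STAT3 the most abundant, while the other target, Bcl3, was next to lowest. The order depended on the scale: in CPM, Lifr was the highest of the 7 in every library and Bcl3 the lowest. Within families, Jak1 gave 24.3 to 33.5% of the summed CPM per kb of the 4 JAK genes across libraries, and Jak3 was the most abundant JAK gene in 8 of 11. Socs3 gave 47.2 to 51.9% of the 8 SOCS family genes and Pim1 20.9 to 24.8% of the 3 PIM genes. On this scale Socs3 was the most abundant gene of its family in 11 of 11 libraries, and Pim2, not Pim1, of the PIM genes.

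**Figure D5:**
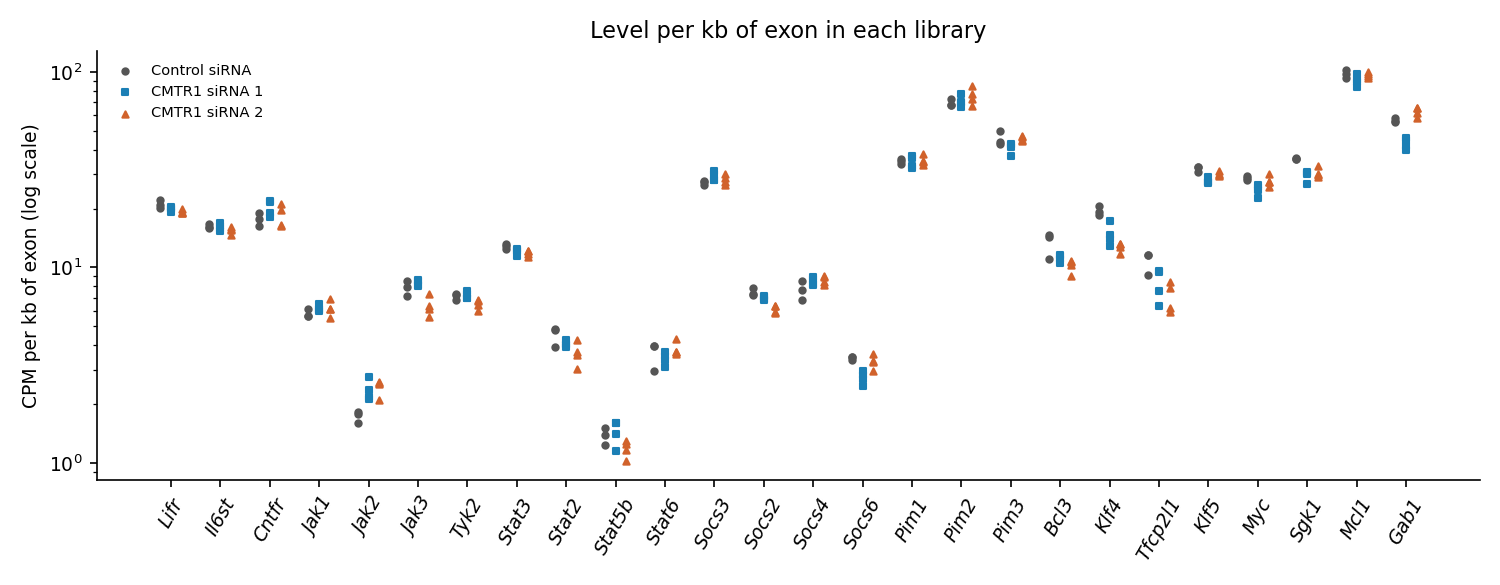
CPM per kb of exon (log y axis) in each library for the 7 pathway genes and related genes, ordered by role, with control as circles, siRNA 1 as squares and siRNA 2 as triangles. Mcl1 and Pim2 are the highest, and groups lie close together for most genes.

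Spread over the 11 libraries was small for most of the 7 genes. The coefficient of variation of CPM was 4.07% for Il6st, 4.56% for Stat3, 4.67% for Lifr, 5.02% for Pim1, 5.60% for Socs3 and 6.66% for Jak1. For Bcl3 it was 14.5%, which holds the difference between its group means, and within groups it was 14.9% in control, 4.02% with siRNA 1 and 7.77% with siRNA 2. Likeness was searched for all 7 genes, and the genes most like Lifr and Socs3 are named here. Other members reached higher values, up to r = 0.963 for Bcl3. The genes most like Lifr over the 11 libraries, by Pearson r of log2 CPM among 11019 genes, were Epha4 (r = 0.917), Tyw3 (0.9003) and Rufy1 (0.872). Those most like Socs3 were Itfg1 (r = 0.905), Aar2 (0.903) and Aprt (0.875). The values named are the highest of many for Lifr and for Socs3 over the same 11 libraries, and they describe likeness only.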

How the data were processed

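RNA-seq of 11 libraries was analysed from the counts the authors deposited, 1 whole number of reads per Ensembl gene and library. Per the methods and the submitters' processing notes, Cutadapt trimmed the reads, STAR placed them on GRCm38/mm10, Picard took out PCR duplicates and featureCounts counted the rest. The summary lines in 10 of the 11 files have the layout of another counter, HTSeq. Libraries were directional, and the strand setting of the counting is not given in the sources used here. Summary lines that name no gene were set aside, among them reads in no gene, 41.9 to 47.0% of reads with a single location in those 10 libraries. Of 54838 identifiers, 54809 matched the GENCODE M21 annotation of GRCm38, which gave symbols, positions and exon lengths.

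Counts were scaled to total gene counts (CPM). The quasi-likelihood test of edgeR 4.0.16 in R 4.3.3 was run on genes with more than 1 CPM in at least 4 libraries, in a model of the 3 groups, with p-values adjusted by Benjamini-Hochberg over 16073 genes. Control was set against siRNA 1, siRNA 2 and the mean of both, and the siRNAs against each other. Alternatives were TMM factors, DESeq2 1.42.0, edgeR's exactTest, no filter, a stricter filter (more than 1 CPM in all 11 libraries), the replicate number as a block, and each library left out in turn. Scripts were tested on simulated data. Library sizes were compared by a two-sided exact permutation test. Tables and figures were made with Python 3.11.15 and matplotlib 3.10.9. Promoter windows were from RefSeq.

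Named genes were the 7 pathway genes and Cmtr1, every other pathway gene called against control, the most abundant gene of each role or marker list per kb of exon, every marker called, and the 3 genes most like Lifr and Socs3 among those averaging 2 or more in log2 CPM. The members and lists were chosen with earlier results of these data known.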

Additional observations from a re-analysis of the deposited data

Results flagged for a closer look

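For 3 genes, 1 library stood apart from the other 3 of its group. Jak2 in the first siRNA 2 library was at 10.5 CPM, against 12.7 to 13.1 in the others. Klf5 in the fourth siRNA 1 library was at 150.1 CPM, against 141 to 142 in the others. Pias2 in the first siRNA 1 library was at 176 CPM, against 193 to 197 in the others. These are 3 of 80 groups of 4 libraries looked at, and chance marks about 1 in 20 groups.

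The test between the siRNAs marked 11 genes by edgeR's quasi-likelihood test, 5 of 49 in the pathway list and 6 of 30 markers, against 7.44% of all genes tested. In the pathway list, siRNA 2 less siRNA 1 was 0.54 for Gab1, 0.22 for Grb2 and 0.27 for Socs6 on the log2 scale, and −0.39 for Jak3 and −0.19 for Socs2. Among markers it was −0.21 (adjusted p = 0.0312) for the pluripotency factor Esrrb, and 0.76 (adjusted p = 2.05e-05) and 0.99 (adjusted p = 0.00395) for the fibroblast genes Col1a1 and Dcn. It was −0.40 (adjusted p = 0.000549) for Tfap2c, −0.68 (adjusted p = 0.000312) for the neural factor Pax6 and 0.19 (adjusted p = 0.0391) for Nes. The Esrrb call was lost with DESeq2 (adjusted p = 0.0634, range 0.00455 to 0.0634) and without siRNA 1 library 2, 3 or 4 or siRNA 2 library 1 or 2 (0.0543 to 0.123). That of Nes was lost with DESeq2 (0.0936, range 0.0335 to 0.0936) and without siRNA 1 library 2, 3 or 4 or siRNA 2 library 1, 2 or 4 (0.0553 to 0.181). Pax6 was at 9.40, 12.3 and 9.42 CPM under control siRNA, against 12.9, 16.3, 12.4 and 12.4 for siRNA 1 and 9.23, 8.11, 7.41 and 9.01 for siRNA 2, with siRNA 1 libraries above and siRNA 2 libraries below all controls.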

How the results depend on the processing

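With 1 library left out, the genes called ranged from 355 to 850 with siRNA 1, 807 to 1667 with siRNA 2, 499 to 1215 with both and 724 to 1374 between the siRNAs. For the 49 other pathway genes the ranges were 5 to 9, 5 to 10, 4 to 9 and 3 to 6. For the 7 genes they were 0 to 1, 0 to 2, 0 to 1 and 0 in every case. DESeq2 called 958 genes with siRNA 2 and 740 between the siRNAs, and exactTest 693 genes and 5 pathway genes with both. TMM factors and DESeq2 each called 2 of the 7 genes, Lifr and Bcl3, with siRNA 2 and with both. The cause was not tested.

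Several values near 0 changed sign. With TMM factors and DESeq2 Pim1 was −0.012 and −0.016 with siRNA 2 and −0.021 and −0.025 with both, and Tubb3 −0.013 and −0.018 with siRNA 2. Leaving out single libraries gave Pim1 −0.043 to 0.023 (siRNA 1), −0.025 to 0.038 (siRNA 2), −0.018 to 0.022 (both) and −0.016 to 0.056 (between), Il6st −0.040 to 0.0073 with siRNA 1 and Jak1 −0.060 to 0.044 between the siRNAs. With siRNA 1 it gave Col1a1 −0.055 to 0.050, Dab2 −0.074 to 0.060, T −0.16 to 0.040 and Tubb3 −0.070 to 0.019. With siRNA 2 it gave Cntfr −0.012 to 0.12, Dab2 −0.068 to 0.066, Mcl1 −0.047 to 0.019, Pou5f1 −0.067 to 0.0036 and Tubb3 −0.057 to 0.066. The cause was not tested.

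Over all genes, deviations from the group means correlated at a mean r of 0.0102 (−0.0645 to 0.0696) for the 10 library pairs that share a number, and −0.00340 (−0.0843 to 0.0846) for the 30 that do not. With the number as a replicate block, edgeR called 840, 1486, 1144 and 1242 genes and 0, 1, 1 and 0 of the 7. Under the block Pim1 was −0.019 with siRNA 2 and −0.030 with both, Il6st 0.0051, Tubb3 0.0049 and Dab2 0.013 with siRNA 1, and Dab2 0.020 with siRNA 2. Jak2 (0.101) and Ptpn1 (0.0547) were then not called with siRNA 1.

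For the 7 genes, 157 of 168 values under the 6 settings and 287 of 308 with a library left out kept their direction and their side of the threshold. Cmtr1 had 110 to 176 reads per library and Bcl3 182 to 286, and at such depths changes could be missed. An interval that excluded 0 did not ensure a call. In edgeR's quasi-likelihood test Bcl3 with siRNA 1 was −0.26 (adjusted p = 0.0874). Cmtr1 with siRNA 2 was −0.25 (adjusted p = 0.144). Only 3 control libraries stood on one side of every comparison with control.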

Other observations

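The ratio of Socs3 to Stat3 CPM within a library, computed after the levels were seen, was 0.677, 0.624 and 0.631 under control siRNA, against 0.685, 0.744, 0.784 and 0.745 for siRNA 1 and 0.806, 0.722, 0.658 and 0.705 for siRNA 2. The siRNA 1 libraries all exceeded the controls, and 1 siRNA 2 library lay inside the control range. The ratio was not tested.

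Among the 21 pairs of the 7 genes, Pearson r of log2 CPM over the 11 libraries ran from −0.818 (Il6st and Pim1) to 0.796 (Stat3 and Bcl3), with 0.634 for Lifr and Stat3 and −0.367 for Stat3 and its target Socs3. The libraries share scaling and group, and these values are a description.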
